A study of Mus musculus with 6 samples.

Results

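The subunits of the proteasome were followed across osteoclast precursor cells of the mouse that received M-CSF alone, RANKL, or RANKL with LE. Members were all genes whose symbol was Psma, Psmb, Psmc, Psmd or Psme followed by a digit, apart from the 3 immunoproteasome genes Psmb8, Psmb9 and Psmb10, and whose mean level over all libraries was at least 0.5 RPKM (reads per kilobase of transcript, scaled to the mapped reads of the library). Of 45 matching symbols among 24940 genes, 42 were left without the immunoproteasome genes, and 41 of these met the limit. They were 14 subunits of the 20S core (7 of the alpha rings and 7 of the beta rings) and 17 of the 19S particle (6 ATPases and 11 non-ATPase subunits). The rest were 3 chaperones of 19S assembly (Psmd5, Psmd9 and Psmd10), 4 activators (Psme1 to Psme4), the testis form Psma8, and 2 name matches. Of these 2, Psme2b is a copy of Psme2. Psmc3ip shares only the name, being a partner of recombinases in meiosis and not a proteasome subunit.

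The rule used levels only at its lower limit. The member nearest to this limit was Psma8, with a mean of 2.27 RPKM and 100 to 154 reads per library. The gene left out by the limit was Psmb11, the form of the chymotrypsin-like subunit known from the thymus, with a mean of 0.049 RPKM and 2 to 10 reads. Every one of the 41 members had at least 100 reads in each library, and the highest count was 12470.

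RNA-seq was done on 6 libraries, 2 for each of 3 groups. The -R group was grown with M-CSF at 30 ng/mL for 3 days, the +R group with the same M-CSF plus RANKL at 100 ng/mL, and the R+LE group with M-CSF, RANKL and LE, a leaf extract of Abeliophyllum distichum, at 10 μg/mL. All groups therefore shared M-CSF, the growth factor that keeps macrophages alive, and RANKL is the cytokine that turns these precursors into osteoclasts. The cells were bone marrow-derived macrophages, given in the labels as from C57BL/6 mice 6 to 8 weeks old, whereas the methods of the study name ICR mice. No source says that the libraries of a group came from separate cultures or animals, so p-values measure only the spread between these libraries, which may be technical.

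The 26S proteasome is the protease that degrades proteins tagged with ubiquitin. Its 20S core is a barrel of stacked rings, with alpha subunits that gate the entrance and beta subunits that carry the catalytic sites, and the 19S particle caps the barrel, binds ubiquitin and unfolds the substrate. PA28 and PA200 are alternative caps, and interferon-induced immunoproteasome subunits can replace the catalytic ones.

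Libraries held 29390175 to 34846371 mapped reads, of which 74.2% to 80.7% fell on genes. Ribosomal RNA of Rn45s took 4.97% to 6.83% of gene reads (-R), 10.9% to 11.1% (+R), and 11.2% to 13.5% (R+LE). Markers of macrophages were high in all libraries, with a summed level of 5 markers of 6374 to 6986 RPKM (-R), 2603 to 3347 (+R), and 3627 to 4041 (R+LE). The 5 osteoclast markers summed to 36.4 to 37.6 RPKM (-R), 921.5 to 1121 (+R), and 176.1 to 221.9 (R+LE). Acp5 carried most of this sum, at 33.6 and 34.8 RPKM (-R), 964 and 795 (+R), and 185 and 147 (R+LE). Oscar and Calcr were at 0 in -R. The lists for neutrophils, B cells and T cells held no single value above 0.567 RPKM, Cd3e and the 3 erythroid markers were listed at 0, and 5 stromal markers summed to 13.3 to 15.3, 9.51 to 13.4 and 7.35 to 8.20 RPKM in -R, +R and R+LE. R+LE replicate 2 stood apart from replicate 1 for these genes. It was lower for 39 of 41 members, with a median difference of -0.28 (log2), against 69.1% of all tested genes and a median of -0.13. Replicate 2 was lower for 26 of 41 members in -R, against 40.1% of all genes, and for 26 of 41 in +R, against 65.3%.

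The members' transcripts were abundant, and the 20S core lay above the 19S particle in every library. The geometric mean of the 14 core subunits was 107 and 100.2 RPKM (-R), 116 and 113 (+R), and 122 and 96.1 (R+LE). The same mean of the 17 subunits of the 19S particle was 64.6 and 62.8 RPKM (-R), 66.5 and 63.1 (+R), and 70.1 and 58.3 (R+LE). For both, the 2 R+LE libraries held the highest and the lowest value of all 6, so R+LE overlapped the other groups. The ratio of the means, which does not depend on library scaling, was 1.65 and 1.60 (-R), 1.75 and 1.80 (+R), and 1.74 and 1.65 (R+LE). The +R libraries lay above the -R libraries. The R+LE libraries lay below both +R libraries and overlapped -R, with R+LE replicate 2 at 1.649 against 1.653 in -R replicate 1. With 2 libraries against 2, the smallest two-sided p that an exact permutation test can give is 0.333, so ratios are given with no test. In bulk RNA, fewer cells of a type and less RNA per cell cannot be told apart.

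**Figure D1:**
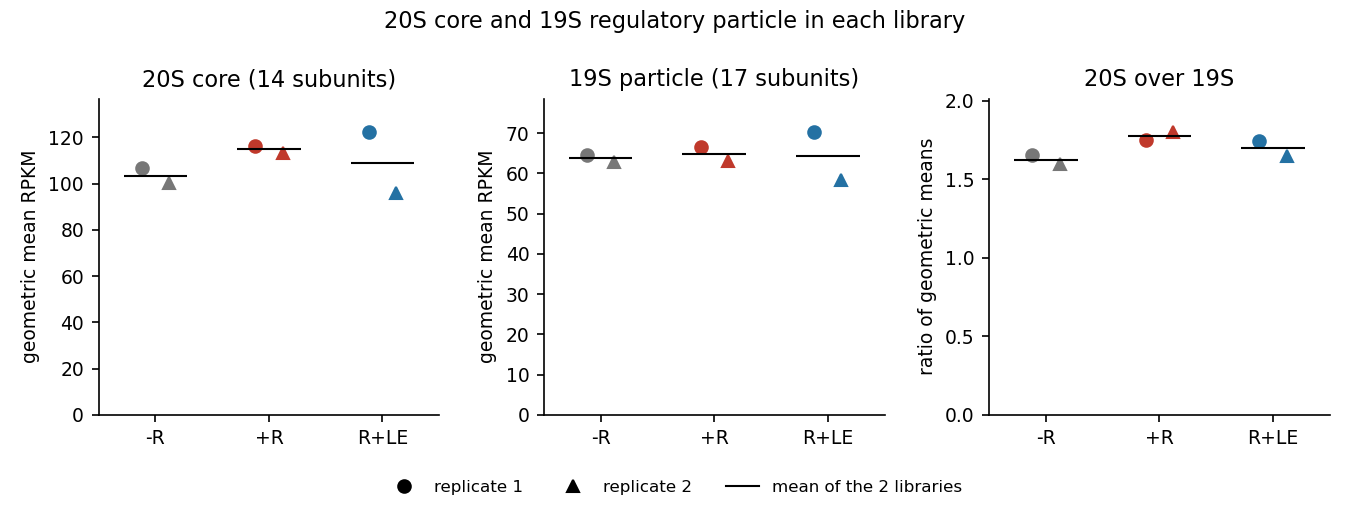
Geometric mean RPKM of the 14 subunits of the 20S core (left) and the 17 of the 19S particle (middle), and their ratio (right), in -R, +R and R+LE. Each symbol is a library (circle, replicate 1; triangle, replicate 2) and each line the mean of the 2. The R+LE libraries, at 122 and 96.1 RPKM for the core, enclose those of the other groups.

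Levels per length differed among subunits of 1 particle. Within the core, the mean over all libraries ran from 51.1 RPKM for Psma3 to 167 for Psmb7, a 3.26-fold range, and the beta rings (geometric mean 124) lay above the alpha rings (96.9). Within the 19S particle it ran from 46.0 RPKM for Psmd3, a lid subunit, to 109.9 for Psmd2, a scaffold of the base, a 2.39-fold range. The highest member was Psme2, the beta subunit of PA28, at 200.1 RPKM. The chaperones lay lower, with Psmd5 at 20.6 and Psmd9 at 6.50 RPKM. These levels are relative to 1 annotated transcript per gene.

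The comparison of +R with -R asks what RANKL does to these transcripts. Few members passed the limma test at an adjusted p of 0.05: 5 were higher (Psma3, Psmb7, Psmd8, Psmd10 and Psmc3ip), against 23.9% of all 11595 tested genes, and 2 were lower (Psme1 and Psme2b), against 21.5%. The count of 5 became 1 without -R replicate 1, 2 without -R replicate 2, 3 without +R replicate 1 and 8 after quantile normalization, and the count of 2 became 1 without -R replicate 2. In the main fit, 17.1% of members passed in all, below the 45.4% of all genes. The share of all genes was not counted under the alternatives, so their counts of members have no such comparison. A change of at least 2-fold as well was seen in 1 of 41 members, Psmd10, against 15.5% of genes. The median log2 fold change was 0.12 for the core, -0.02 for the 19S particle and 0.05 for all genes, and that of the 19S particle was 0.04 without +R replicate 2 or with Rn45s left out of the scaling. In the core 2 of 14 passed and in the 19S particle 1 of 17, whereas 57.6% passed among the 1197 genes with a level at least that of the lowest 20S or 19S subunit.

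The intervals show how far the other subunits may have moved between these libraries with the deposited scaling. They cover neither other scalings nor, if the libraries of a group are technical, the spread between cultures. The 95% interval of the fold change lay within 2-fold either way for 14 of 14 core subunits and 16 of 17 of the 19S particle, against 69.9% of all genes. Within 1.5-fold it lay for 11 and 15 of them, against 33.6% of genes. The 19S subunit whose interval reached past 2-fold was Psmd8.

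**Figure D2:**
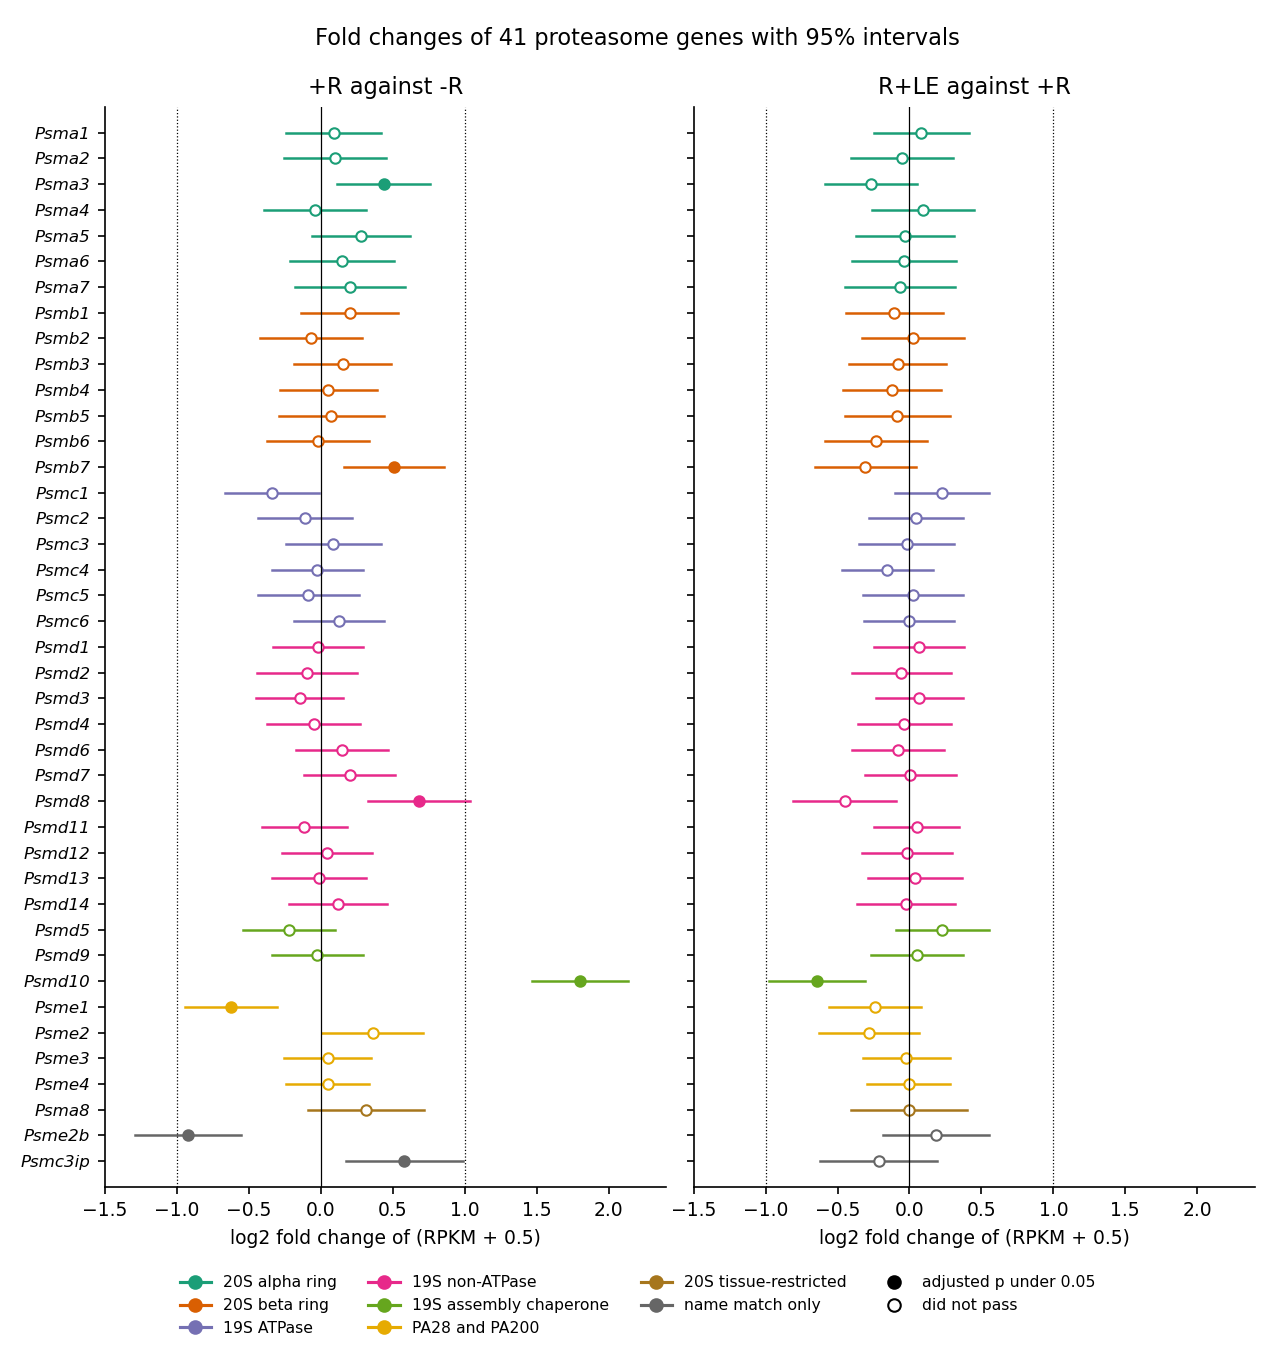
Log2 fold changes of (RPKM + 0.5) of the 41 members in +R against -R (left) and R+LE against +R (right), with 95% intervals from limma; filled points had an adjusted p under 0.05 and dotted lines mark 2-fold. Psmd10, at 1.80 and -0.64, lies farthest from 0 in each comparison, while most intervals cover 0. Both comparisons use the same +R libraries.

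Psmd10, also called gankyrin, had the largest change. It is a chaperone that binds the ATPase Psmc4 during assembly of the 19S base and is absent from the finished particle. Its gene lies on chromosome X from 140948425 to 140956711 (mm10, minus strand). The levels were 16.2 and 16.7 RPKM (-R), 62.1 and 54.9 (+R), and 42.8 and 32.4 (R+LE). All 3 groups were separate from each other, with R+LE between the other two. Mean levels were 16.4 ± 0.337, 58.5 ± 5.11 and 37.6 ± 7.35 RPKM (SD, n = 2). Psmd10 rose 3.48-fold with RANKL, a log2 fold change of 1.80 (SE 0.16, limma adjusted p = 1.90e-07). The other chaperones did not pass, with log2 fold changes of -0.22 for Psmd5 and -0.02 for Psmd9. Relative to the geometric mean of the 19S subunits in the same library, Psmd10 was at 0.258 ± 0.011 (-R), 0.902 ± 0.046 (+R), and 0.582 ± 0.038 (R+LE) (SD, n = 2).

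The promoter windows of Psmd10, which had the largest change, and of the PA28 pair Psme1 and Psme2 are shown. The pair was chosen because Psme1, which fell with RANKL, and Psme2, which did not pass, lie close together and their products form 1 complex. Sequences are RefSeq's for build GRCm38.p6, from 250 bases before to 30 after the annotated start, 5′ to 3′ on the strand of the gene, at chrX:140956682-140956961 (minus), chr14:55578244-55578523 (plus) and chr14:55590992-55591271 (minus). Capitals mark matches on either strand to 3 motifs searched: TGACNNNGC (antioxidant response element), the CCAAT box, and an interferon-stimulated response element that starts with GAAA and, past any 2 bases, ends with the same letters. A match on the other strand appears as its complement, read backwards.
Psmd10: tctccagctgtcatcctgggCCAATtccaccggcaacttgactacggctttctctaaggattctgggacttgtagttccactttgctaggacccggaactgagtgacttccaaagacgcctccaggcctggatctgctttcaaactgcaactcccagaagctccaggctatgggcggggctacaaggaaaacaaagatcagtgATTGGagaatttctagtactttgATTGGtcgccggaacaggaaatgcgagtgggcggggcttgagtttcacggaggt
Psme1: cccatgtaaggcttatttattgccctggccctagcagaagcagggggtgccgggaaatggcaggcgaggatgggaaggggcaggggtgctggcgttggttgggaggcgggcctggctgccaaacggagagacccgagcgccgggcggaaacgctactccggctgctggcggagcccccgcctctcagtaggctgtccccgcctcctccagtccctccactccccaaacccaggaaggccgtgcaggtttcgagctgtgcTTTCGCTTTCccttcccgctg
Psme2: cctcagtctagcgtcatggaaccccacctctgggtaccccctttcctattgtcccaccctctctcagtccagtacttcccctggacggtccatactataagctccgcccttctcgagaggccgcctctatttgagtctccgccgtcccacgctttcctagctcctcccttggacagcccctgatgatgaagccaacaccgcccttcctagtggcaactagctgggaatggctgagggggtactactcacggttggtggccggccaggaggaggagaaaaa
The Psmd10 window held 3 CCAAT boxes, at 230, 47 and 24 bases before the start. The Psme1 window held 1 match to the interferon-stimulated response element, 10 bases after the start, and the Psme2 window held no match. Over windows of 300 bases, from 250 before to 50 after the start, 34 members had a sequence. The antioxidant motif was found in 6 of them (17.6%), against 15.2% of 8921 tested genes with a window, and CCAAT in 12 (35.3%), against 39.0%. The interferon motif was found in 4 (11.8%), namely Psmb3, Psmd4, Psmd9 and Psme1, against 3.45%. A match is only a description of letters.

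Among the 17 subunits of the 19S particle, Psmd8 alone passed after RANKL. Psmd8, a lid subunit, was at 66.9 and 74.0 RPKM (-R), 116 and 111 (+R), and 96.7 and 70.9 (R+LE). Both +R libraries were above all others, and R+LE overlapped -R. The log2 fold change of +R against -R was 0.68 (SE 0.17, limma adjusted p = 0.00345), with an adjusted p of 0.0728 without -R replicate 1. The fall nearest to the threshold was that of the ATPase Psmc1, at 94.8 and 101 RPKM (-R), 80.9 and 73.7 (+R), and 99.3 and 82.1 (R+LE). The +R libraries were the lowest, but with a log2 difference of -0.34 the gene did not pass (limma adjusted p = 0.0850; 0.0134 with limma voom on recovered reads).

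Of the 3 catalytic subunits, only Psmb7 passed. Psmb5 carries the chymotrypsin-like site and was at 140.5 and 118 RPKM (-R), 129.7 and 142 (+R), and 145 and 112 (R+LE). Psmb6, with the caspase-like site, was at 129 and 124 RPKM (-R), 116 and 134 (+R), and 121 and 93.1 (R+LE). For both genes -R and +R overlapped, and the log2 differences were 0.07 and -0.02. Psmb7, with the trypsin-like site, was at 143 and 136 RPKM (-R), 194 and 203 (+R), and 180.4 and 143 (R+LE). Both +R libraries were above all others, with a log2 fold change of 0.51 (SE 0.16, limma adjusted p = 0.0192). Whether Psmb7 moved differently from Psmb5 and Psmb6 was not tested. Over all its annotated exons (3421 bases), Psmb7 shares 405 bases with Nek6 on the other strand, and the counting took reads from either strand. How many of these lie in the counted transcript of 959 bases was not computed, here or for the other overlaps given. Annotated copies, 1 of Psmb5, 2 of Psmb6 and 1 of Psmb7, could share reads with these genes.

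Psma3 was the only alpha subunit that passed. It was at 45.1 and 42.8 RPKM (-R), 60.2 and 59.1 (+R), and 55.4 and 44.1 (R+LE). The +R libraries were highest and -R and R+LE overlapped, with a log2 fold change after RANKL of 0.44 (SE 0.15, limma adjusted p = 0.0270). The calls of Psma3 and Psmb7 were lost when any single library of -R or +R was left out, with adjusted p up to 0.161 and 0.151 (limma).

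**Figure D3:**
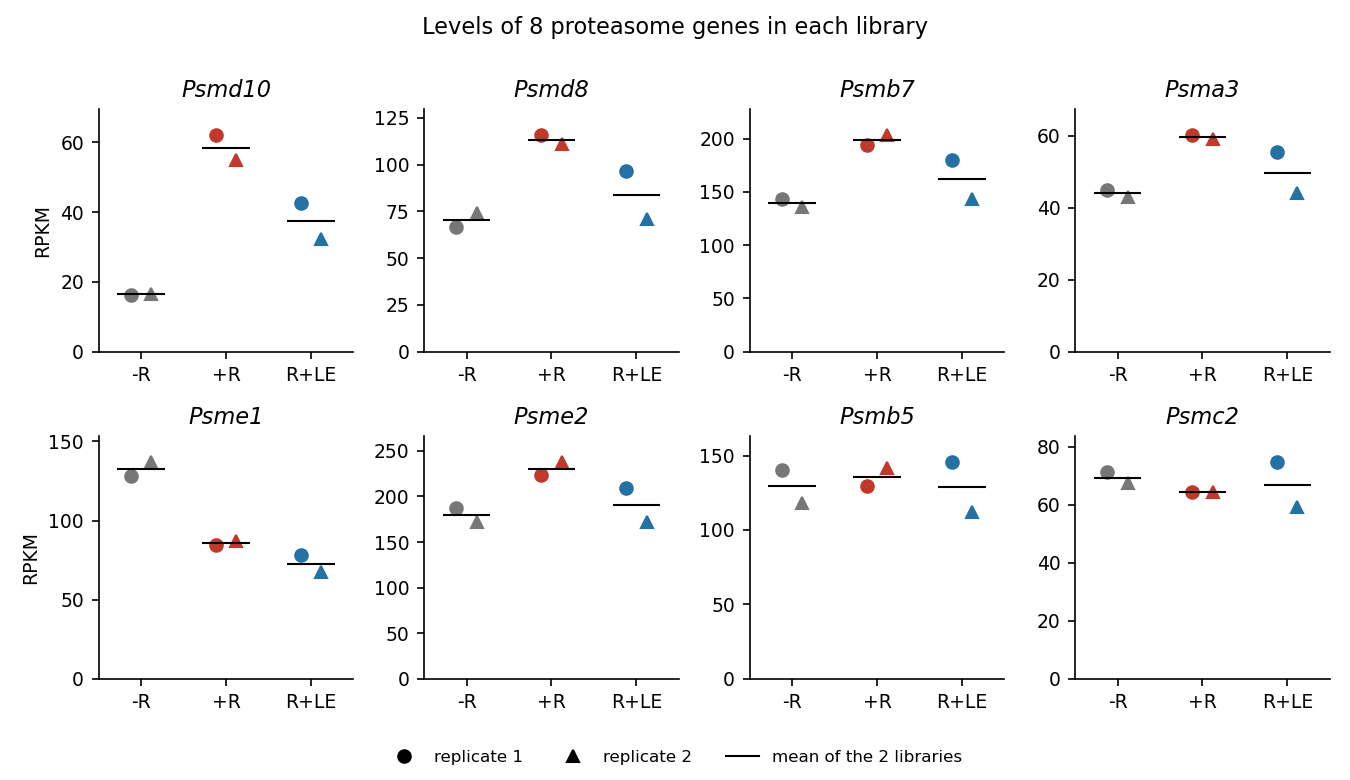
RPKM of 8 members in each library of -R, +R and R+LE; circles are replicate 1, triangles replicate 2, and lines the mean of the 2 libraries. Psmd10 separates all 3 groups, from 16.2 RPKM in -R to 62.1 in +R, and Psme1 is highest in -R. Psmb5 and Psmc2, shown for comparison, overlap between -R and R+LE. Psmc2 is lower in +R (64.4 and 64.2 RPKM) than in -R (71.3 and 67.4) but did not pass.

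Of the activators only Psme1 passed. Psme1 and Psme2 encode the alpha and beta subunits that form PA28 together, and lie close to each other on chromosome 14. Psme1 is at 55578494 to 55581527 (plus strand) and Psme2 at 55587440 to 55591021 (minus strand). Psme1 was at 128 and 137 RPKM (-R), 84.2 and 87.2 (+R), and 78.4 and 67.3 (R+LE). The -R libraries were above all others, and Psme1 fell by 0.62 on the log2 scale with RANKL (SE 0.15, limma adjusted p = 0.00314; 0.0540 without -R replicate 2). Psme2 was at 187 and 172 RPKM (-R), 224 and 237 (+R), and 209 and 172 (R+LE). It was highest in +R and did not pass, with a log2 difference of 0.36 (limma adjusted p = 0.0858; 0.0210 with limma voom on recovered reads).

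The ratio of Psme1 to Psme2 within a library was 0.685 and 0.797 (-R), 0.377 and 0.367 (+R), and 0.375 and 0.391 (R+LE). Both groups with RANKL lay below -R and overlapped each other. The means were 0.741 ± 0.079, 0.372 ± 0.007 and 0.383 ± 0.011 (SD, n = 2). Psme1 shares 14 exon bases with Emc9 on the other strand.

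The other activators did not pass in any comparison. Psme3, the nuclear PA28 gamma, was at 45.5 and 44.8 RPKM (-R), 46.0 and 47.4 (+R), and 49.4 and 42.7 (R+LE). Psme4, or PA200, was at 16.97 and 18.6 RPKM (-R), 18.3 and 18.5 (+R), and 19.1 and 17.5 (R+LE). R+LE overlapped the other groups for both, and no log2 difference of either exceeded 0.05 in size.

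Of the name matches and the testis form, Psme2b was at 9.12 and 10.9 RPKM (-R), 4.07 and 6.20 (+R), and 5.88 and 5.69 (R+LE). It was highest in -R and fell by 0.92 (log2) with RANKL (limma adjusted p = 0.000488), but as a copy of Psme2 it can share reads with that gene. Psmc3ip was at 5.199 and 5.52 RPKM (-R), 8.09 and 8.43 (+R), and 9.25 and 5.36 (R+LE). It rose by 0.58 with RANKL (limma adjusted p = 0.0212; 0.144 and 0.0936 without -R replicate 1 or 2), and it shares 385 exon bases with Mlx on the other strand. Psma8 was at 2.04 and 1.70 RPKM (-R), 2.98 and 1.99 (+R), and 2.20 and 2.69 (R+LE). The first of these groups overlapped the second and the gene did not pass (log2 difference 0.32).

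The markers given above differed between these groups as well. With RANKL, all 5 osteoclast markers passed as higher and 4 of 5 macrophage markers as lower, while Itgam did not pass (log2 difference 0.34). With LE, all 5 osteoclast markers passed as lower, none of the 5 macrophage markers passed, and of the stromal markers Col1a2 passed as lower (log2 fold change -0.53, limma adjusted p = 0.0312). The macrophage sum was carried by Lyz2. With LE the log2 differences were 0.54 for Lyz2, 0.53 for Adgre1, 0.22 for Itgam, -0.16 for Csf1r and -0.41 for Cd68. Adgre1 came nearest to passing (limma adjusted p = 0.0565). The part of the markers in the differences of the members was not tested. With Rn45s left out of the scaling, the log2 fold changes after RANKL were 1.86 for Psmd10, 0.75 for Psmd8, 0.57 for Psmb7 and -0.56 for Psme1, and all 4 passed.

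The comparison of R+LE with +R asks what LE changes in the presence of RANKL. A single member passed: Psmd10 was lower, against 6.86% of all genes, and no member was higher, against 5.19%. Without adjustment, 2 members had a p under 0.05 in limma, Psmd10 and Psmd8, against 23.3% of all genes. Limma voom on recovered reads gave 0 higher and 2 lower, the same 2 genes. Without R+LE replicate 1, 4 members were lower (Psmd10, Psmd8, Psmb7 and Psmc3ip), and without -R replicate 1, -R replicate 2, +R replicate 1 or R+LE replicate 2 there were 0. No member passed with a change of at least 2-fold, against 3.23% of genes. After quantile normalization, 1 member was higher (Psmc1) and 2 were lower (Psmd10 and Psmd8). Here too, the share of all genes was not counted under the alternatives. The median log2 fold change was -0.07 for the core, -0.004 for the 19S particle and -0.05 for all genes. The 95% interval lay within 2-fold for all 41 members, against 90.0% of genes, and within 1.5-fold for 34 members, against 59.7%.

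Psmd10 fell by 0.64 on the log2 scale with LE (SE 0.16, limma adjusted p = 0.0125), and the level in R+LE remained above both -R libraries. Without R+LE replicate 2, the difference was -0.45 with an adjusted p of 0.0689 (limma), and across 17 alternatives the adjusted p ran from 0.00102 to 0.0995, with the call lost in 6. Leaving out -R replicate 1, -R replicate 2 or +R replicate 1 gave limma adjusted p of 0.0507, 0.0511 and 0.0868. The next largest falls with LE were those of Psmd8 (log2 difference -0.45, limma adjusted p = 0.102; 0.0249 with limma voom on recovered reads) and Psmb7 (-0.31, limma adjusted p = 0.291). The levels given above show R+LE below +R for both genes. The largest positive differences, none of which passed, were those of Psmd5 (0.23), Psmc1 (0.22) and Psme2b (0.18). Psmd5 was at 22.2 and 20.8 RPKM (-R), 20.1 and 16.8 (+R), and 24.0 and 19.4 (R+LE), so +R and R+LE overlapped.

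The class medians in this comparison depended on the scaling and on the R+LE library used. After quantile normalization they were 0.03 for the core and 0.05 for the 19S particle. Without R+LE replicate 2, the median log2 fold change was 0.12 for the core and 0.12 for the 19S particle, and without replicate 1 it was -0.25 and -0.16. The direction for either class is therefore not fixed by these libraries.

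R+LE was also compared with -R, a comparison that shares its libraries with the other two. Psmd10 was higher, the only such member, against 15.3% of all genes, and Psme1 and Psme2b were lower, against 19%. Psmd10 was the only member past 2-fold, against 10.3% of genes. Its log2 fold change was 1.16 (SE 0.16, limma adjusted p = 3.38e-05). Psme1 fell by 0.86 (SE 0.15, limma adjusted p = 0.000356) and Psme2b by 0.74 (limma adjusted p = 0.00392; 0.0770 without -R replicate 2). The next largest differences did not pass, at 0.37 for Psmc3ip, 0.31 for Psma8 and -0.25 for Psmb6. Core and 19S medians were 0.08 and 0.02, with -0.01 for all genes. They were -0.087 and -0.095 without R+LE replicate 1 and 0.26 and 0.13 without replicate 2, so their direction turned too. With all libraries, none of the 14 and 17 subunits passed. At an unadjusted p under 0.05, limma gave 0 in each class too, against 43.5% of all genes, and limma voom on recovered reads also passed none of them. After quantile normalization 9 members were higher and 2 lower, against 1 and 2 with the deposited scaling. The added ones were Psma1, Psma3, Psma5, Psma6, Psmb7, Psmc6, Psmd7 and Psmd8. The share of all genes that passed was not counted under the alternatives, so whether the members moved more than other genes was not tested. Without R+LE replicate 2, 4 members were higher in place of 1, with Psma5, Psmc3ip and Psmd8 added.

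The immunoproteasome genes, which are not members, were read against the catalytic subunits that their products replace. Psmb8 was at 132 and 105 RPKM (-R), 108 and 122 (+R), and 83.5 and 70.9 (R+LE). Psmb9 was at 50.3 and 41.5 RPKM (-R), 43.5 and 43.9 (+R), and 32.7 and 26.9 (R+LE). Psmb10 was at 57.2 and 50.6 RPKM (-R), 34.2 and 41.4 (+R), and 34.0 and 29.7 (R+LE). The ratio of Psmb8 to Psmb5 was 0.939 and 0.885 (-R), 0.837 and 0.858 (+R), and 0.575 and 0.631 (R+LE). The ratio of Psmb9 to Psmb6 was 0.389 and 0.335 (-R), 0.374 and 0.328 (+R), and 0.271 and 0.289 (R+LE). For both pairs the R+LE libraries lay below all others. The ratio of Psmb10 to Psmb7 was 0.400 and 0.372 (-R), 0.176 and 0.203 (+R), and 0.189 and 0.208 (R+LE). Both groups with RANKL lay below -R. Part of this difference lies in the denominator, since Psmb7 rose by 0.51 (log2) in +R against -R. Psmb8 fell by 0.57 and Psmb9 by 0.55 (log2) with LE (limma adjusted p = 0.0333 and 0.0278), and Psmb10 by 0.51 with RANKL (limma adjusted p = 0.0126). Only members were put through the alternatives, so how these calls depend on the processing or on single libraries was not tested. Psmb8 shares 498 exon bases with Gm20496 and Psmb9 212 with Tap1 on the other strand.

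**Figure D4:**
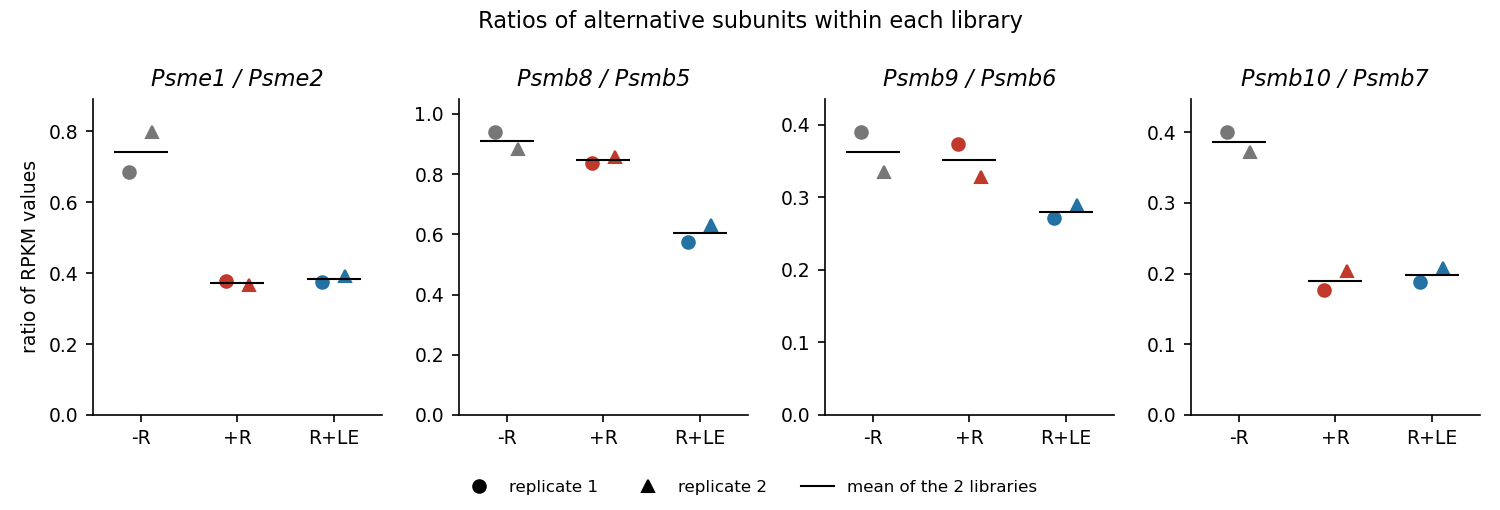
Ratios of RPKM within each library for Psme1 to Psme2 and for each immunoproteasome subunit to the catalytic subunit it replaces, in -R, +R and R+LE; circles are replicate 1, triangles replicate 2, lines the mean of the 2. The ratios with Psme1 and Psmb10 are lower in both groups with RANKL, and those with Psmb8 and Psmb9 are lowest in R+LE, at 0.575 and 0.271 in replicate 1.

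Genes that assemble, regulate or feed the proteasome were taken from a list of 37 names, of which 3 were alternate names absent from the table, leaving 34 genes. After RANKL 5 were higher and 5 lower, so that 29.4% passed, against 45.4% of all genes. These calls, and those with LE given below, were not put through the alternatives. The higher genes were Psmg1 (an assembly chaperone of the core), Ngly1 (a deglycosylase needed to activate Nfe2l1), Usp14 (a deubiquitinase bound to the 19S particle), Rad23b (a ubiquitin shuttle) and Rps27a (a ubiquitin fusion). The lower genes were Psmb10, Nfe2l2 (a regulator of antioxidant genes), Ddi2 (the protease that cleaves Nfe2l1), Nfya (a subunit of the factor that binds CCAAT) and Sqstm1 (an autophagy receptor for ubiquitin). Of these, Sqstm1 passed 2-fold. Sqstm1 was at 275 and 250 RPKM (-R), 129 and 115 (+R), and 183 and 149 (R+LE), with -R above the other groups and a log2 fold change of -1.10 (limma adjusted p = 6.18e-05).

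With LE, none of the 34 was higher and 3 were lower than in +R: Psmb8, Psmb9 and Ngly1. These were 8.82% of the list, against 12.05% of all genes. Against -R, R+LE had 1 higher gene, Rad23b, and 5 lower, namely Psmb8, Psmb9, Psmb10, Nfya and Sqstm1, none of which passed 2-fold. That was 17.6% of the list, against 34.3% of all genes. Nfe2l1, the transcription factor known for raising proteasome genes when the protease is inhibited, was at 28.1 and 28.04 RPKM (-R), 25.3 and 23.9 (+R), and 22.0 and 26.5 (R+LE). It was highest in -R and did not pass after RANKL (log2 difference -0.19, limma adjusted p = 0.301). Pomp, the maturation factor of the core, was at 103 and 97.0 RPKM (-R), 108 and 91.3 (+R), and 106 and 86.0 (R+LE), with overlap of all groups and a log2 difference of -0.01 after RANKL (limma adjusted p = 0.972).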

How the data were processed

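RNA-seq of 6 libraries was analysed, grouped by the condition and replicate number in the sample labels. Per the study's methods the authors aligned reads to mm10 with TopHat, while the submitters' processing notes name HISAT2, HOMER and DESeq2, with no version. HOMER counted exon reads on either strand for 1 transcript per gene, and the authors deposited them as RPKM, beside a transcript length for each gene that was deposited as another kind of column. The file headers call the unit FPKM. No column of values was left unused, and 26 symbols that had become dates were restored from their transcripts.

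RPKM values are not counts, so log2(RPKM + 0.5) was modelled by group in limma 3.58.1 (R 4.3.3) over all 6 libraries for 11595 genes that averaged 0.5 RPKM or more, with empirical Bayes, a variance trend and Benjamini-Hochberg adjustment. Fold changes refer to that scale. A gene passed at an adjusted p under 0.05. The fold limit was 2. Whole reads were recovered from RPKM and length (100% of the low values checked were within 0.1 of a whole read) and gave the depth. Levels therefore rest on at least 100 reads per member, and both this and the 2 libraries per group limit precision. Scripts were tested on simulated data. Python 3.11.15, numpy 2.4.6, pandas 2.3.3 and matplotlib 3.10.9 were used for tables and figures.

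Values per library are given for the catalytic subunits, the activators, the 3 largest rises and falls in each comparison, members past 2-fold, those nearest to the 0.5 RPKM limit, the immunoproteasome genes, listed genes past 2-fold, Nfe2l1 and Pomp. Psma3 is also given by library, since it passed. The members, gene lists and rules were chosen with earlier results of these data known. Some genes linked to the pathway are not reported here. Alternatives were other pseudocounts, filters and scalings, no variance trend, and only the compared groups. A replicate block, limma voom on recovered reads and leaving out each library were the others. Calls under the alternatives were read for members only. Promoters came from RefSeq; 7 members had none in the table used. All annotated exons of each gene in the same build, not only those of the counted transcript, gave the overlaps. By these, 10 of 41 members share bases with a gene on the other strand and 3 with one on the same strand.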

Additional observations from a re-analysis of the deposited data

How the results depend on the processing

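The call of Psmd10 after RANKL was kept under all 17 alternatives, with log2 fold changes of 1.71 to 1.89, as was that of Psme2b. Those of Psme1 and Psmd8 were kept under 16 and those of Psma3 and Psmb7 under 12. No call of a named gene changed direction, whereas class medians, which carry no test, changed sign as given below. Without a filter on low values, 2 members were higher and 0 of 41 fell with LE, 1 member being lower in R+LE than in -R; the fit of only the compared groups also gave 0 lower with LE. Quantile normalization gave 8 higher with RANKL, 1 higher and 2 lower with LE, and 9 higher in R+LE than in -R. Shares of all genes that passed were not counted under any alternative. The replicate block and voom on recovered reads each gave 2 members lower with LE, Psmd10 and Psmd8, the limma adjusted p of Psmd8 being 0.0434 with the block. The deviations of same-numbered libraries correlated at -0.05, 0.11 and 0.25 over the 3 pairs of groups, which was not over 0.1 in every pair, so the numbers were not taken to pair the libraries.

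Leaving out each library gave 1 to 6 members higher and 1 to 3 lower with RANKL, 0 to 4 lower with LE, and 1 to 4 higher and 1 to 3 lower in R+LE than in -R. The median log2 fold change with LE ran from -0.25 to 0.12 for the core and from -0.16 to 0.12 for the 19S particle. Against -R it ran from -0.087 to 0.26 and from -0.10 to 0.13. The extremes came from leaving out R+LE replicate 1 or 2. Quantile normalization gave 0.03 for the core and 0.05 for the 19S particle with LE. Scaling without Rn45s moved the median of all genes for +R against -R from 0.05 to 0.10, and that of the 19S particle from -0.02 to 0.04. The cause of these shifts was not tested. With 2 libraries a group, intervals rest on the shared spread of all groups.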
